A study of Mus musculus with 4 samples.

Results

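The core circadian clock genes are the 10 genes Clock, Arntl, Per1, Per2, Per3, Cry1, Cry2, Nr1d1, Nr1d2 and Dbp. They were chosen by name, and all 10 were found among the 46320 gene identifiers of the RNA-seq tables. Their levels, the ratio of those levels between the libraries, and the share of their reads from each parental allele were taken from mouse frontal cortex.

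The clock is a feedback loop of transcription that runs in most cells of the body. CLOCK and BMAL1, the product of Arntl, pair up and activate genes through E-box sequences, and the PER and CRY proteins made from such genes return to the nucleus and block the pair. REV-ERB-alpha and REV-ERB-beta, the products of Nr1d1 and Nr1d2, repress Arntl in a further loop, and DBP activates genes through D-box sequences. In the brain the suprachiasmatic nucleus of the hypothalamus sets the phase, and the cortex keeps a rhythm of its own, so the level of most of these transcripts depends on the hour of sampling.

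The RNA came from the prefrontal cortex of females aged 14 weeks from a cross labelled C57BL6J/Spretus, kept under light/dark cycles with free access to food. Every animal carried a mutation of the noncoding RNA Xist on the maternal allele, so no group without it can be compared, and all results describe that background. There were 2 RNA-seq libraries and 2 MethylC-seq libraries, the latter a bisulfite method that reads the methylation of single cytosines. RNA and DNA were isolated from tissue pooled over individuals of separate litters. The hour of dissection is not stated in the labels. They also leave out whether the libraries are separate animals or the same pool. A p-value below therefore covers no more than the scatter of these 2 libraries, and that scatter may be technical. The comparison that the design implies is between the C57 and the Spretus allele inside the same tissue. The libraries are replicates of 1 group, and the ratio between them shows how well a clock gene's level repeats.

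The elements through which the clock proteins act are shown first, because each member is both part of the loop and a target of it. RefSeq promoters (GRCm38.p6, 250 bases before to 50 after the transcription start) were matched for 9 of the 10 members, with 13 starts in all, and Per2 was not among them. Both strands were searched for the E-box CACGTG, the E-box variant CACGTT, the D-box as TTATGTAA or TTACGTAA, the core site AGGTCA bound by REV-ERB and ROR proteins, and the cAMP response element TGACGTCA. No match of 1 motif overlapped a match of another in these promoters. The following 4 stretches of 120 bases, each given 5′ to 3′ on the gene's strand and ending before the transcription start, hold the E-box and D-box matches of Per1, Per3, Cry1 and Nr1d1 that are described next. Capitals mark the matches.
Per1 (chr11:69098729-69098848, plus strand): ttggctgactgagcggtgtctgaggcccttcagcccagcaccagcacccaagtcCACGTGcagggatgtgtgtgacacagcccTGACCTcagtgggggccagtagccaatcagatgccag
Per3 (chr4:151044776-151044895, minus strand): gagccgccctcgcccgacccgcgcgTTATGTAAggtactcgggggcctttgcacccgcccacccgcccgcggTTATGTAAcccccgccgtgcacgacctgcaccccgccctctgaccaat
Cry1 (chr10:85185055-85185174, minus strand): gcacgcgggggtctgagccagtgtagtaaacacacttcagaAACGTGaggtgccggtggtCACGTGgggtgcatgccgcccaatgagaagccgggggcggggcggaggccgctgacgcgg
Nr1d1 (chr11:98775378-98775497, minus strand): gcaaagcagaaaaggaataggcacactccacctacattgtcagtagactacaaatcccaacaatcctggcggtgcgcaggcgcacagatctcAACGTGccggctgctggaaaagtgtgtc

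The E-box CACGTG occurred in Per1, 166 bases before its start, and in Cry1, 60 bases before its start. It occurred in 7.15% of all 32851 promoters in the table. The variant CACGTT, read as AACGTG on the other strand, occurred in Cry1, Cry2 and Nr1d1, and in 4.68% of all promoters. Per3 held the D-box TTATGTAA at 2 places, 205 and 158 bases before its start, against 0.938% of all promoters with at least 1 match. The AGGTCA core site, which reads TGACCT in Per1, occurred in Clock, Arntl, Per1 and Nr1d2 and in 16.3% of all promoters. Clock, Arntl and Per1 have more than 1 start each and did not match at every start, and the Arntl match lay after the start. For every motif here members are counted by gene over all their starts, while the shares are per promoter, so the units differ. The D-box TTACGTAA (0.119% of promoters) and the cAMP response element (1.79%) were in 0 of the 9 matched members, and Dbp had no match in this window. A match describes letters in a window and not a bound site, and no factor binding was measured.

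**Figure D1:**
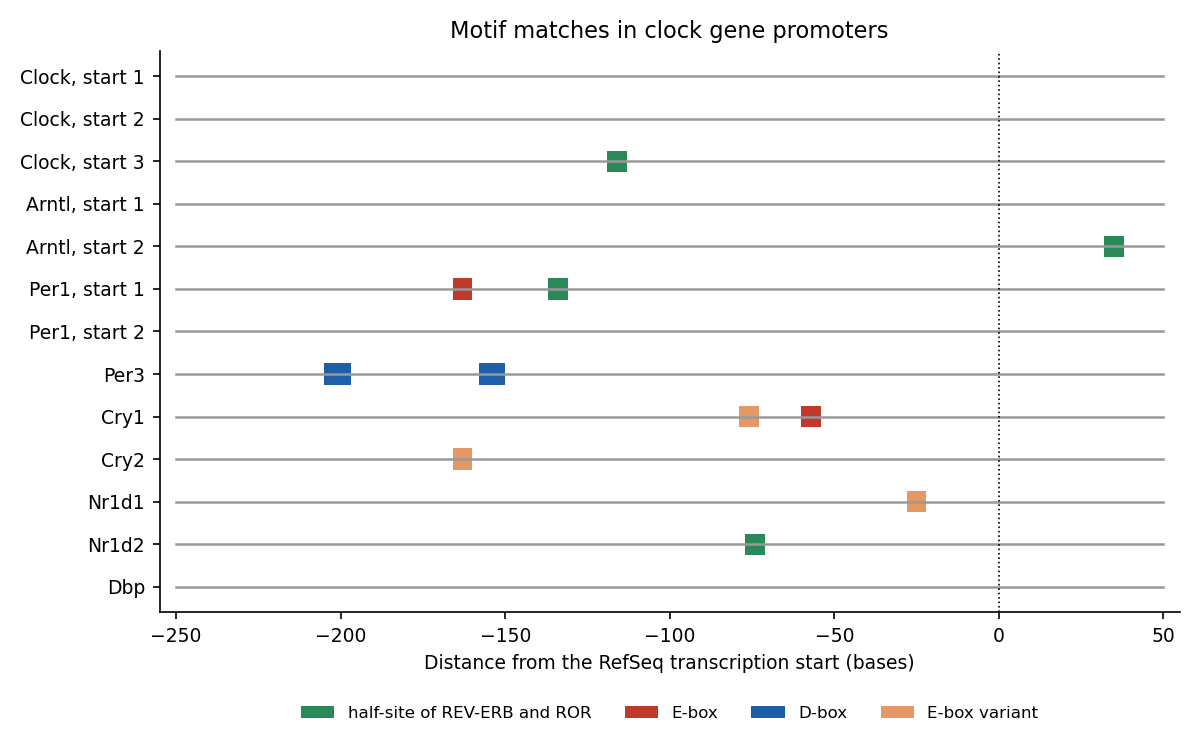
Positions of motif matches (coloured blocks) in the promoters of 9 clock genes, with 1 grey line per RefSeq start and the distance from that start in bases on the x axis. Per3 carries 2 D-box matches, Per1 and Cry1 an E-box each, and Dbp no match.

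The allele-assigned reads numbered 4768237 in library 1 and 1291903 in library 2, and the 10 members took 6664 of them together. Xist, the mutated gene, gave 98.6% Spretus reads in library 1 and 98.9% in library 2, so few of its reads came from the C57 copy, taken here as the maternal one from the order of the strain label. FPKM is a fragment count scaled by transcript length and sequencing depth. It stood 5.62 times higher in library 1, as a median over the 8970 genes with at least 1 FPKM in both libraries. This common factor was removed for every relative ratio below. Summed over all genes, FPKM was 847432 in library 1 and 875902 in library 2, so the totals did not differ by that factor. The highest gene of each library had 156580 and 517032 FPKM. The part of such genes in the common factor was not tested. The tissue held cortical cells: 4 of 4 pan-neuronal, 4 of 4 excitatory neuron and 5 of 5 astrocyte markers had at least 1 FPKM in both libraries. Of the 5 suprachiasmatic nucleus markers, Vip alone, a gene that cortical interneurons also express, stood above 1 FPKM (22.1 and 5.58). Six6 was listed at 0 in both libraries, Avp and Prok2 at 0 in library 2 and Lhx1 at 0 in library 1. The pineal markers Aanat, Asmt and Tph1 stayed under 1 FPKM.

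All 10 clock genes were detected in both libraries. In library 1, 8 of the 10 lay above the median of the genes with at least 1 FPKM, and in library 2, 6 of the 10 did. Those sets held 15101 genes in library 1 and 9029 in library 2. With FPKM 5.62 times higher in library 1, the same floor is stricter in library 2. Percentiles and counts above the floor are therefore not comparable between the libraries. In library 1 they ran from 3.59 FPKM for Cry1 to 26.7 for Nr1d1, with a median of 18.1. In library 2 the highest member, Nr1d2, lay at the 62.1 percentile, Arntl at 45.2 and Per3 at 16.0, and Per2 and Cry1 stood under 1 FPKM.

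Among the activators, Clock (chromosome 5, 76209868 to 76304792), which encodes the histone-acetylating partner of BMAL1, had 19.4 FPKM in library 1 and 3.83 in library 2. Its level lay at the 72.2 percentile of genes with at least 1 FPKM in library 1. In library 2 it lay at the 59.2 percentile, of a smaller set of genes. The listed span of Clock shares 4176 bases with RP23-386C10.5 (0.522 and 0.0771 FPKM) and 459 with RP23-386C10.8, which was listed at 0 FPKM in both libraries. Arntl (chromosome 7, 113207465 to 113314122), which encodes BMAL1, had 13.2 and 2.72 FPKM. Clock thus stood 1.48 times above its partner in library 1 and 1.40 times in library 2, a ratio within the library that needs no scaling between libraries.

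The repressors spread the widest. Per1 (chromosome 11, 69095217 to 69109960), the period gene known for its quick induction by light, hormones and neuronal activity, had 16.8 FPKM in library 1 and 3.49 in library 2. Per2 (chromosome 1, 91415982 to 91459324), a period gene needed for a stable rhythm, had 5.33 and 0.801 FPKM. Per3 (chromosome 4, 151003652 to 151044665), which is largely dispensable for the central rhythm, had 8.91 and 1.44 FPKM. The order Per1, Per3, Per2 therefore held in both libraries, with Per2 at 0.318 times Per1 in library 1 and 0.230 times in library 2. Cry1 (chromosome 10, 85131702 to 85185054), which encodes the strong and late repressor of the CLOCK and BMAL1 pair, had 3.59 and 0.803 FPKM. Cry2 (chromosome 2, 92403646 to 92434043), its close relative, had 26.2 and 4.09 FPKM. Cry1 stood at 0.137 times Cry2 in library 1 and 0.197 times in library 2, so Cry2 was several times the higher of the pair in each.

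Of the REV-ERB genes, Nr1d2 was among the 3 highest members in both libraries, as Cry2 was, while Nr1d1 ranked 1 in library 1 and 4 in library 2. Nr1d1 (chromosome 11, 98767932 to 98775333) had 26.7 FPKM in library 1 and 3.81 in library 2. Nr1d2 (chromosome 14, 18204054 to 18239127) had 22.4 and 4.13 FPKM. Nr1d1 was 1.19 times Nr1d2 in library 1 and 0.922 times in library 2, so the libraries did not give the same order for this pair. Dbp (chromosome 7, 45705088 to 45710155), a strongly rhythmic output gene in many tissues, had 20.8 and 3.33 FPKM. Nr1d1 shares 1075 bases of its span with Thra, the thyroid hormone receptor alpha gene on the opposite strand, which stood at 209 and 38.2 FPKM, and Dbp shares 689 bases with Sphk2 (9.57 and 1.68). No source used here says whether counting used strand, so the values of Nr1d1 and Dbp may include reads of these neighbours, and their part in the levels was not tested.

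**Figure D2:**
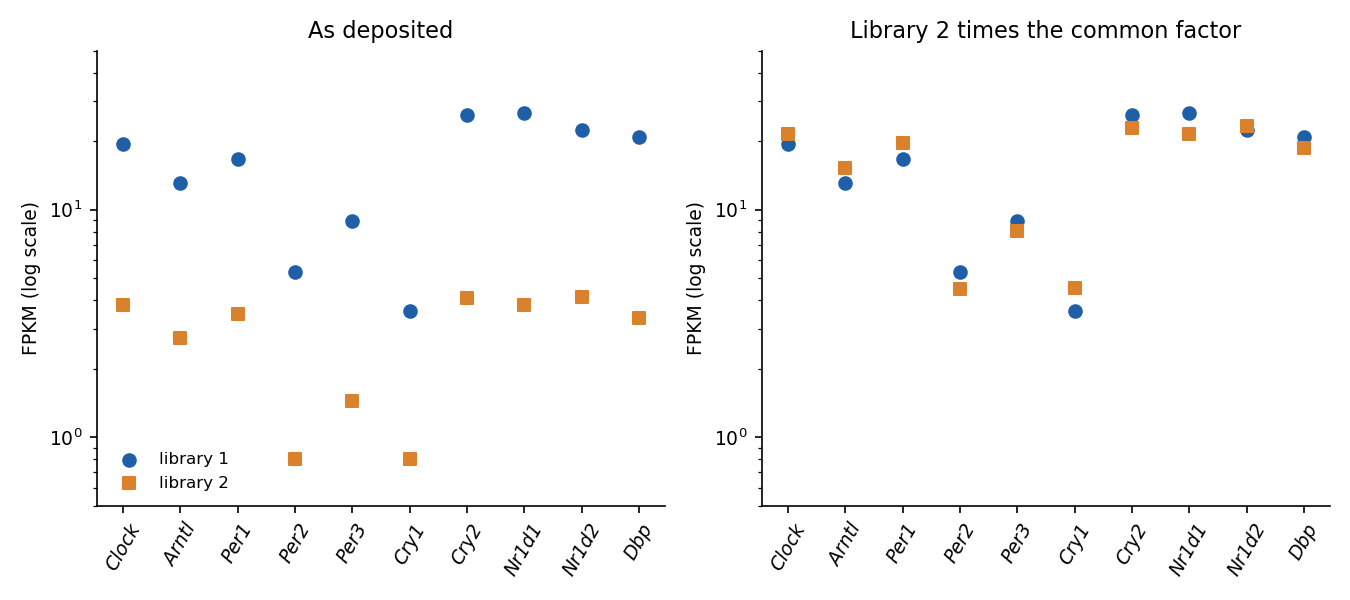
FPKM of the 10 clock genes on a log axis, with circles for library 1 and squares for library 2. The left panel shows the deposited values and the right panel library 2 multiplied by the common factor of 5.62, after which Per2 and Cry1 stay the lowest in each library, and Cry2 and Nr1d2 are among the 3 highest in each.

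With library 2 multiplied by the common factor, the scaled mean FPKM fell from Cry2 at 24.6 ± 2.28 (SD, n = 2) through Nr1d1 at 24.0 ± 3.70, Nr1d2 at 22.8 ± 0.588, Clock at 20.5 ± 1.47, Dbp at 19.8 (20.8 and 18.7 in the libraries) and Per1 at 18.2 ± 2.01 to Arntl at 14.2 ± 1.53, Per3 at 8.50 ± 0.581, Per2 at 4.92 ± 0.589 and Cry1 at 4.05 ± 0.655. The scaled ranges of neighbours overlapped for Cry2 and Nr1d1, Nr1d1 and Nr1d2, Clock and Dbp, Dbp and Per1, and Per2 and Cry1. They did not overlap for Nr1d2 and Clock, Per1 and Arntl, Arntl and Per3, or Per3 and Per2. Arntl ranked 7 and Per3 ranked 8 in each library, and exchanges of rank took place within the 6 genes above them and between Per2 and Cry1 below them.

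Clock genes kept their levels between the libraries about as closely as other expressed genes did. The relative library ratio is the FPKM of library 1 over library 2 divided by the median ratio of 5.62, and a value of 1 means the change of the median gene. Of the 8 members with at least 1 FPKM in both libraries, 0 lay past 1.5-fold in either direction, against 11.0% of all 8970 such genes. The 8 ran from 0.855 for Per1 to 1.24 for Nr1d1 with a median of 1.03, and the quartiles of all genes were at 0.861 and 1.16. That range of the members held 59.5% of all genes.

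By role, the activators lay below 1, with Clock at 0.903 and Arntl at 0.859. Per1 lay at 0.855, Per3 at 1.10 and Cry2 at 1.14. Nr1d2 lay at 0.964 and Dbp at 1.11. Per2 (1.18) and Cry1 (0.795) are given as values only, since both fell below 1 FPKM in library 2. The peak of Arntl lies opposite to that of the Per, REV-ERB and Dbp genes in most tissues. Relative to Arntl by FPKM, Dbp stood at 1.58 in library 1 and 1.22 in library 2. In the same order, Nr1d1 stood at 2.03 and 1.40, and Nr1d2 at 1.70 and 1.52. Per1 stood at 1.27 and 1.28, Per2 at 0.405 and 0.294, and Per3 at 0.677 and 0.528. With 1 library on each side these ratios have no replicate check.

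Allele-assigned reads gave a second view of the same libraries. Their median ratio was 4.06 over the 11981 genes with at least 10 such reads in each library, all 10 members among them. Of the 10 members, 0 lay past 1.5-fold by reads, against 11.6% of all genes tested. Nr1d2 had 595 reads in library 1 and 182 in library 2, a relative ratio of 0.805 with an exact 95% counting interval of 0.681 to 0.956, and it was the only member whose interval left out 1. Cry1 had 135 and 46 reads and the lowest relative ratio, 0.723 (0.514 to 1.03). Per3, with 873 and 193 reads, had the highest, 1.11 (0.952 to 1.31). Nr1d1 lay above 1 by FPKM (1.24) and below 1 by reads (0.839, 0.691 to 1.02), and Cry2 likewise at 1.14 and 0.955 (0.828 to 1.10). The direction between libraries of these genes therefore depends on the unit, and the cause of that was not tested. By reads Arntl lay at 0.990, with Per2 (1.05), Per3 and Dbp (1.03) above it and Per1 (0.838), Nr1d1 and Nr1d2 below it. The higher ratio of Nr1d1 and Nr1d2 to Arntl in library 1 was thus not seen by reads. The intervals cover counting error only, since the reads carry no molecular identifiers.

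**Figure D3:**
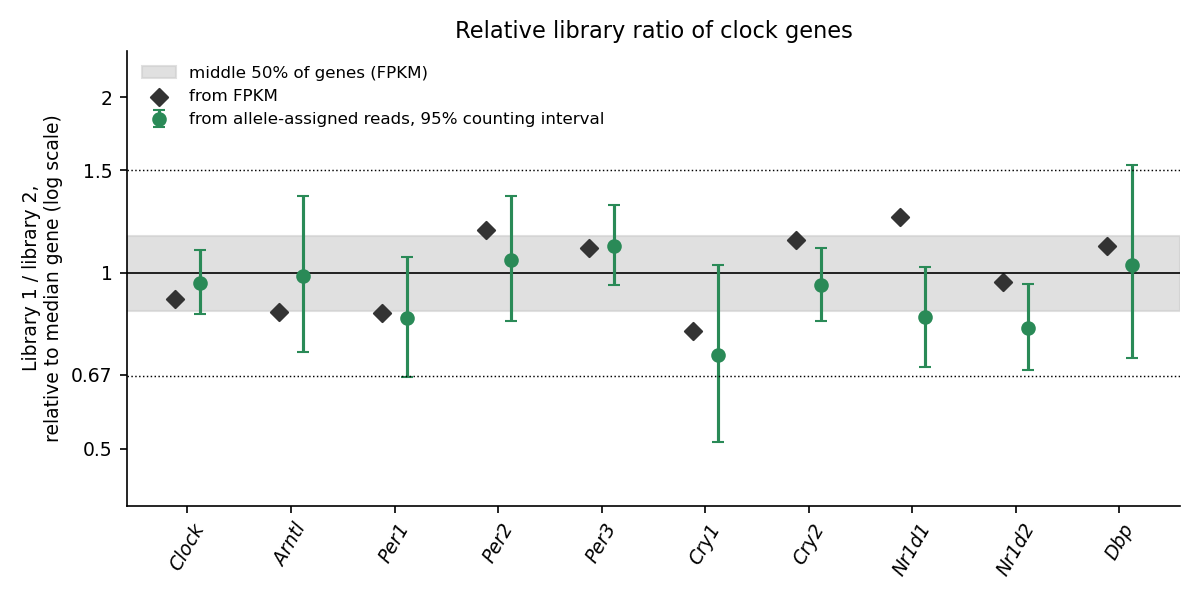
Relative library ratio of the 10 clock genes on a log axis, with diamonds from FPKM and circles from allele-assigned reads with exact 95% counting intervals. The grey band holds the middle 50% of genes by FPKM (0.861 to 1.16), dotted lines mark 1.5-fold, and no member's value lies outside them.

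Gene lists known to move with activity, hormones or tissue make-up differed between the libraries as follows. The 6 activity-regulated genes with at least 1 FPKM in both libraries had a median relative ratio of 0.770, with Nr4a1, an orphan nuclear receptor gene named after its values were seen, lowest at 0.325. The 4 such glucocorticoid-responsive genes had a median of 0.997. Oligodendrocyte markers had a median of 1.62 (4 of 5 genes with at least 1 FPKM in both libraries, summed FPKM of all 5 at 639 and 65.8), blood markers 2.53 (3 of 4 genes, 927 and 73.2), astrocyte markers 1.25 (5 of 5, 249 and 36.1) and pan-neuronal markers 0.826 (4 of 4, 1987 and 452). None of these marker genes was listed at 0. By allele-assigned reads the medians were 0.973 for oligodendrocyte markers, 1.15 for blood (2 of 4 genes with enough reads), 0.976 for astrocyte and 0.566 for pan-neuronal markers, so the higher level of oligodendrocyte and astrocyte markers in library 1 was not seen in that unit. The medians by reads were 0.835 for activity-regulated and 0.923 for glucocorticoid-responsive genes. Microglia markers lay above 1 in both units, with medians of 1.30 by FPKM and 1.23 by reads. In the same order, the medians were 0.945 and 0.682 for excitatory neuron, 1.04 and 0.842 for inhibitory neuron and 1.01 and 1.03 for endothelial markers. The part of these shifts in the clock gene ratios was not tested, and in bulk tissue fewer cells of a type and less RNA per cell cannot be told apart.

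Both parental alleles of every clock gene were transcribed, in shares close to those of other autosomal genes. The Spretus share of reads summed over the libraries ran from 45.6% for Cry2 to 53.3% for Per1, with a median of 49.6% over the 10 members. The median autosomal gene had 48.1%, with quartiles of 44.3% and 51.3% over 11584 genes. The reads behind these shares ran from 181 for Cry1 to 1541 for Clock. This number did not follow the FPKM, since Dbp had 7.25 allele-assigned reads per FPKM in library 1 and Per3 had 98.0, and the precision of the shares differed accordingly.

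The activators sat near the autosomal median. For Clock, 587 of 1227 reads were Spretus in library 1 (47.8%, exact Clopper-Pearson 95% interval 45.0 to 50.7%) and 146 of 314 in library 2 (46.5%, 40.9 to 52.2%). For Arntl it was 110 of 221 in library 1 (49.8%) and 26 of 55 in library 2 (47.3%). The shares of each gene differed between libraries by less than the width of either interval.

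The 3 Per genes had summed shares above 52%, each higher than at least 80.5% of autosomal genes. Per1 had 171 Spretus reads of 323 in library 1 (52.9%, 47.3 to 58.5%) and 52 of 95 in library 2 (54.7%, 44.2 to 65.0%). Per2 had 180 of 359 in library 1 (50.1%, 44.8 to 55.4%) and 52 of 84 in library 2 (61.9%, 50.7 to 72.3%). Per2 thus had nearly equal alleles in the deeper library and more Spretus reads in the shallower. Per3 had 458 of 873 in library 1 (52.5%, 49.1 to 55.8%) and 107 of 193 in library 2 (55.4%, 48.1 to 62.6%). The summed intervals of Per1 (48.4 to 58.2%) and Per3 (49.95 to 56.03%) included 50% but lay above the autosomal median of 48.1%. That of Per2 (47.6 to 57.1%) included both.

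The Cry genes lay on either side of the autosomal median. Cry1 had 73 Spretus reads of 135 in library 1 (54.1%, 45.3 to 62.7%) and 23 of 46 in library 2 (50.0%, 34.9 to 65.1%). Cry2 had 429 of 938 in library 1 (45.7%, 42.5 to 49.0%) and 109 of 242 in library 2 (45.0%, 38.7 to 51.5%). Cry2 was the only member whose summed interval, 42.7 to 48.5%, left out 50%. That interval included the autosomal median of 48.1%, and 31.9% of autosomal genes had a share below that of Cry2. Most of the Cry2 span (77.0%) is also covered by the antisense transcript D930015M05Rik, which had 3.39 FPKM in library 1 and 0.682 in library 2. It had 0 allele-assigned reads in each library. How reads in the overlap were counted is not given, and the part of this transcript in the Cry2 values was not tested.

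The REV-ERB genes and Dbp were near equal. Nr1d1 had 221 Spretus reads of 460 in library 1 (48.0%, 43.4 to 52.7%) and 67 of 135 in library 2 (49.6%, 40.9 to 58.4%). Nr1d2 had 302 of 595 in library 1 (50.8%, 46.7 to 54.8%) and 86 of 182 in library 2 (47.3%, 39.8 to 54.8%). Dbp had 69 of 151 in library 1 (45.7%, 37.6 to 54.0%) and 21 of 36 in library 2 (58.3%, 40.8 to 74.5%), the widest spread among the members at 52.0% ± 8.94 (SD, n = 2). Between the libraries, the share differed beyond counting error for 0 of the 10 members in Fisher's exact test, two-sided, with Benjamini-Hochberg adjustment over all genes tested (adjusted p = 1 for each), against 0.00% of the 11981 genes. At an unadjusted p under 0.05 the test passed 0 members and 291 genes (2.43%).

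**Figure D4:**
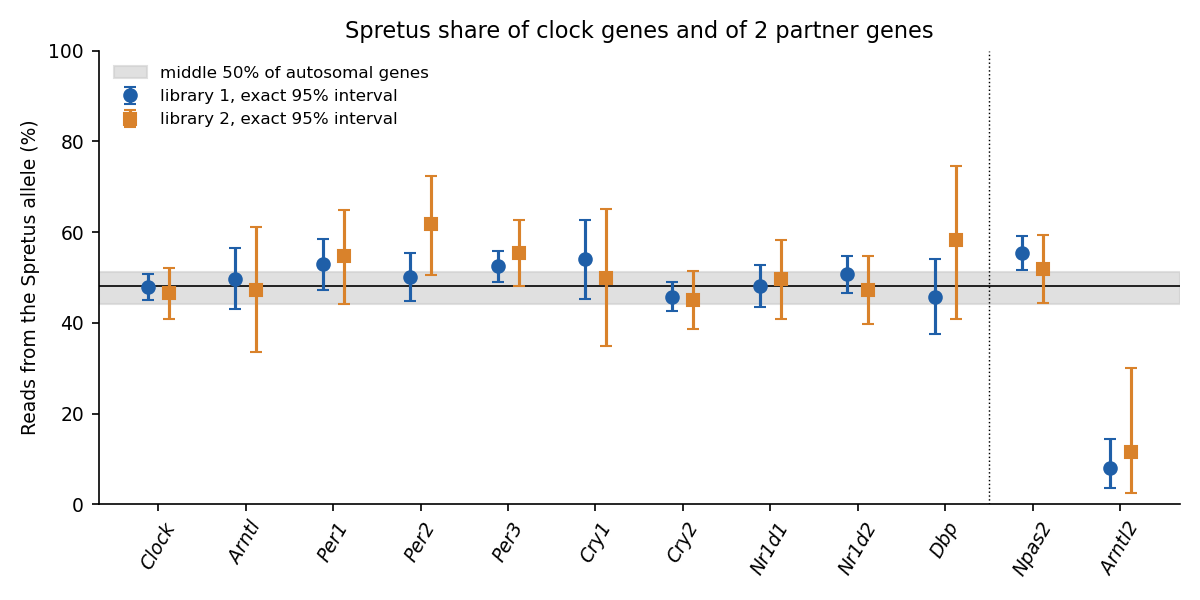
Percentage of allele-assigned reads from the Spretus allele for the 10 clock genes and, right of the dotted line, for the partner genes Npas2 and Arntl2, with exact 95% intervals for each library. The members lie between 45.0% and 61.9%, around the grey band of the middle 50% of autosomal genes, and Arntl2 lies at 7.89% and 11.5%.

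In the planned fit, which does not pair the alleles by library, no clock gene was called imbalanced. With allele as its only term, the quasi-likelihood test of edgeR, adjusted by Benjamini-Hochberg over 11981 genes, called 0 of the 10 members, against 8.55% of all genes tested and 5.43% of autosomal genes. At an unadjusted p under 0.05 it passed 0 members (18.2% of all genes), and DESeq2 also called 0 members (5.41% of all genes). The log2 ratio of Spretus over C57 ran from -0.14 for Cry2 to 0.36 for Per2 with a median of 0.08, beside 0.01 over all genes tested. It was above 0 for 8 members, but for 4, the 3 Per genes and Cry1, when both alleles were scaled by their library's summed reads in place of a factor for each allele. That scaling moved the median autosomal log2 ratio from 0.02 to -0.11. Missing the threshold does not show equal alleles. On simulated counts for 11981 genes with a library effect shared by the alleles, this fit recovered 0% of genes changed 2-fold and 32.0% of those changed 4-fold, and without that effect 10.0% and 87.0%.

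Since C57 and Spretus reads of a library were sequenced from 1 RNA sample, the library number pairs them. With the library as a block, the quasi-likelihood test of edgeR (Benjamini-Hochberg adjusted) called Per3 toward Spretus (log2 ratio 0.31, SE 0.08, adjusted p = 0.00379), where the fit without the block gave 0.34 (SE 0.18, adjusted p = 0.368). This was 1 of 10 members, against 25.0% of all genes and 22.5% of autosomal genes called with the block. On the simulated counts with a shared library effect, the block fit recovered 86% of genes changed 2-fold and 100% of those changed 4-fold. Without that effect it recovered 57% and 99%. Per3 was higher from Spretus in both libraries, though the interval of its share included 50% in each. Its direction was the same with DESeq2, with shared totals, under the other filters and in each library alone. These settings reuse the same counts and are no separate support. The size depends on the scaling, since with shared totals and no block the log2 ratio was 0.20 (SE 0.18) and not called. Shared totals were not fitted with the block. Per1 (log2 ratio 0.32, SE 0.12, adjusted p = 0.0767) and Per2 (0.27, SE 0.13, adjusted p = 0.143) also had an unadjusted p under 0.05 with the block, as 34.7% of all genes did, and missed the adjusted threshold in edgeR's test. The block leaves 1 residual degree of freedom per gene, and edgeR added 32.7 drawn from all genes. Scatter beyond read counting, as a common coefficient of variation, was 0.00988 with the block and 0.136 without it. The p-values with the block thus rest mostly on scatter shared across genes and close to read counting. The whole span of Per3 lies inside the listed span of Camta1, a calmodulin-binding transcription activator gene on the same strand, so reads of both cannot be told apart by strand. Camta1 had a summed Spretus share of 44.0% (41.0 to 47.0%), lower than the 53.0% of Per3.

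**Figure D5:**
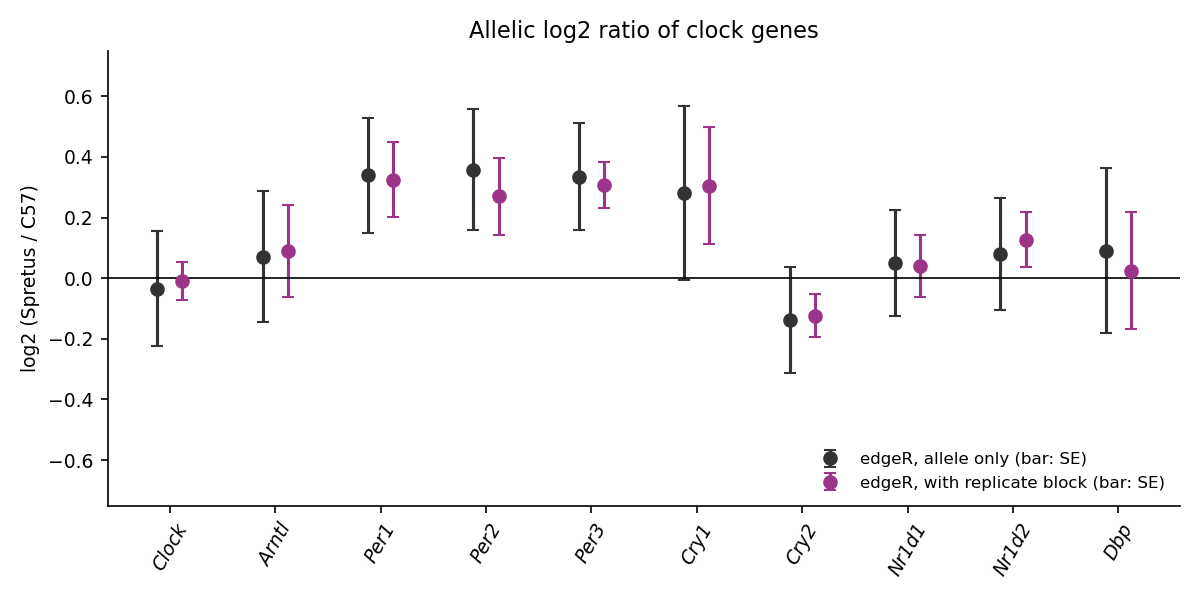
Log2 ratio of Spretus over C57 for the 10 clock genes from edgeR with allele as the only term (dark) and with the library as a block (purple), with bars of 1 SE. The 3 Per genes and Cry1 sit highest in both fits, and Per3 alone passes the adjusted threshold, with the block.

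Beyond the 10 genes, 21 partner genes of the clock were tested in the same fit. Of the 21, edgeR's quasi-likelihood test with allele as its only term called 2 toward C57 and 0 toward Spretus, against 6.23% and 2.32% of all genes. They were Arntl2, which encodes BMAL2, a relative of BMAL1, and Nono, an RNA-binding partner of PER proteins. Nono lies on the X chromosome, whose Spretus copy is the silenced one in these mice, and had 4 Spretus reads in 277 in library 1 and 0 in 96 in library 2.

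Arntl2 (chromosome 6, 146796055 to 146833529) came mostly from the C57 allele. Spretus gave 9 of its 114 reads in library 1 (7.89%) and 3 of 26 in library 2 (11.5%), a summed share of 8.57% with an exact 95% interval of 4.51 to 14.5%. Only 0.449% of autosomal genes had a lower share. Its log2 ratio was -3.23 (SE 0.37, adjusted p = 5.74e-05 in edgeR's quasi-likelihood test) and -3.26 with the block (adjusted p = 2.96e-11 in the same test), and DESeq2 called it too. Its level was low, at 3.46 and 0.623 FPKM, and Arntl stood 3.80 and 4.37 times above it. Strain and parental origin of this share cannot be told apart, since only 1 direction of the cross was sequenced. How reads were assigned to alleles is not given, and its part in this share was not tested.

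With the block, 6 partners were called, 4 toward C57 and 2 toward Spretus, against 14.2% and 10.8% of all genes. The added calls in edgeR's quasi-likelihood test with the block were Npas2, a paralog of Clock used in the forebrain (log2 ratio 0.40, adjusted p = 0.000373), Timeless, a replication gene related to a fly clock gene (0.76, adjusted p = 0.0305), Rorb, an activator of Arntl and a marker of cortical layer neurons (-0.21, adjusted p = 0.0176), and Btrc, an F-box gene that targets PER proteins for degradation (-0.25, adjusted p = 0.0495). Npas2 had 392 Spretus reads of 708 in library 1 and 93 of 179 in library 2, a summed share of 54.7% (51.3 to 58.0%). The other tested partners had summed shares from 43.9% for Nfil3, a repressor at D-boxes, to 58.4% for Fbxl21, an F-box gene of CRY turnover.

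By level, the D-box activator Tef was the highest partner, at 195 FPKM in library 1 and 43.7 in library 2. Its relative Hlf had 41.4 and 11.2 FPKM. Tef stood at 9.38 times Dbp in library 1 and 13.1 times in library 2, and Hlf at 1.99 and 3.37 times. Of the repressors, Bhlhe40 was highest at 37.0 and 6.79 FPKM. The kinase genes Csnk1d, Csnk1e, Gsk3b and Csnk2a1 stood between 29.2 and 48.1 FPKM in library 1. Clock stood at 1.53 and 1.67 times its paralog Npas2. Of the 18 partners with at least 1 FPKM in both libraries, 3 lay past 1.5-fold by relative ratio, all higher in library 2, against 6.04% of all genes in that direction and 4.92% in the other. These, named after their values were seen, were Timeless at 0.319, Bhlhe41, a repressor gene related to Bhlhe40, at 0.514 and Hlf at 0.657. Timeless had 1.85 and 1.03 FPKM in libraries 1 and 2, and Bhlhe41 had 3.66 and 1.27. A gene under 5.62 FPKM in library 1 reaches 1 FPKM in library 2 only with a relative ratio below 1. Timeless and Bhlhe41 therefore passed the floor only through library 2, and the count is no result about the partners. By reads Hlf lay at 0.774 (0.683 to 0.880), while Timeless and Bhlhe41 lay above 1, at 1.64 (0.928 to 3.11) and 1.31 (0.920 to 1.92), so their direction depends on the unit.

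No listed region of allelic methylation difference lay at a clock gene, as was the case for most autosomal genes. The authors' deposited table held 1600 regions with levels, and 0 of the 10 members had a region within 2 kb of the listed span. Of the 11584 autosomal genes tested for expression, 3.15% had a region within 2 kb, so the count of the members is near that share. Within 50 kb the members also had 0, and no share over all genes was taken at that distance. The nearest to any member lay 123 kb from Per3 (chromosome 4, 150879848 to 150880346), with a level of 0.919 for C57 and 0.376 for Spretus in the authors' deposited table. For Arntl the nearest region was 3360 kb away. Regions overlapped 4 of the 22 partners, a count that includes Nono on the X chromosome. The share of all genes with an overlapping region was not taken, so this count has no background and is a description only. In the authors' deposited table Npas2 held 1 of 334 bp (chromosome 1, 39345571 to 39345905) with a level of 0.920 for C57 and 0.478 for Spretus. The regions in Rora (12 bp) and Gsk3b (6 bp) had a level of 0 on Spretus in the authors' deposited table. Arntl2 had none within 2010 kb. Nono on the X chromosome held 2 regions. The methylation level at the clock genes themselves is not known, since a place outside the list was not called. Coverage behind these levels is unknown.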

How the data were processed

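RNA-seq and MethylC-seq libraries of mouse prefrontal cortex were read as deposited. Per the labels' protocols, ribosomal RNA was removed and strand-marking libraries were made. The submitters' processing notes name mm10 and, with no role, bedtools 2.2.4, HTSeq 0.6.0, Cufflinks 2.1.1 and TopHat2 2.0.9. Not given in the sources used here are allele assignment, annotation and strand use in counting. Per the file headers, the authors deposited raw counts per allele and 1 FPKM value per gene and library, and methylation levels as a fraction for each region. The list's name points to methylpy, and its thresholds, context and pooling are not given. Of the regions, 13 without levels were left out, and 49 identifiers at more than 1 locus were used once. Gene starts were counted from 0 (38.6% matched RefSeq after adding 1, 2.31% as listed) and are printed counted from 1.

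Allelic imbalance was tested with edgeR 4.0.16 in R 4.3.3 (glmQLFit, glmQLFTest, TMM, allele as the only term) on all genes whose C57 and Spretus reads summed to 10 or more in both libraries, with a Benjamini-Hochberg threshold of 0.05. Alternatives were the library as a block, DESeq2 1.42.0, alleles sharing a library's total, no filter, at least 50 reads, and each library alone. The library pairs its alleles by design. Across 7565 autosomal genes of 200 or more reads, C57 and Spretus deviations from the allele means correlated at 0.597. Tests were checked on simulated counts. Intervals are exact Clopper-Pearson 95%, from scipy 1.17.1. FPKM ratios between libraries had no test. The named genes are all members, each partner that was called, not detected, or the highest or lowest of its role, and genes overlapping a member. A gene of the partner list is not reported here. Members and lists were chosen with earlier results of these data known.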

Additional observations from a re-analysis of the deposited data

How the results depend on the processing

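The number of genes called imbalanced, 1024 in the planned fit, was 2999 with the library as a replicate block, 648 with DESeq2, 1808 with no filter on low counts and 351 with at least 50 reads in each library. The clock members called numbered 1 with the block and 0 in the other settings, and the partners called numbered 6 with the block and 1 with at least 50 reads, where Arntl2 was not tested. With at least 50 reads Cry1 and Dbp were not tested either. With the alleles of a library sharing its total, the log2 ratio turned negative for Arntl (-0.061), Nr1d1 (-0.077), Nr1d2 (-0.042) and Dbp (-0.019). With 1 library left the log2 ratio is a value with no test. Without library 1 it was 0.80 for Per2 and 0.58 for Dbp, and without library 2 0.13 and -0.13. Arntl and Nr1d2 also stood below 0 without library 1. The block changed no other call among the members. The relative library ratio of Nr1d1, Nr1d2 and Cry2 was 0.839, 0.805 and 0.955 by reads, with counting intervals that left out the FPKM values of 1.24, 0.964 and 1.14. The FPKM ratios have no interval of their own, so whether the move exceeds counting error is not known. Depth limits Dbp and Cry1 most, whose summed shares have intervals 14.8 and 15.0 points wide.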
